A study of Mus musculus with 12 samples.

Results

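A set of 9 genes of the tricarboxylic acid cycle and its refilling was described over 4 groups of MIN6 libraries: Pcx, Cs, Idh2, Idh3a, Ogdh, Sucla2, Fh1, Mdh1 and Mdh2. They are the 9 rows among 49315 in the deposited count files whose gene name is one of these symbols, each symbol matched 1 row, and all 9 were among the 16844 genes that passed the filter on low counts. MIN6 cells, derived from a mouse insulinoma, are widely used in place of primary β-cells; all libraries are of wild-type (WT) cells grown in high-serum DMEM with glutamine. The 12 libraries were 3 of untreated control cells, 3 of cells kept 16 h without amino acids (starved), 3 of cells given amino acids back for 3 h (re-added) and 3 of cells given amino acids back together with an agent labelled Rap for 3 h. Neither the meaning of Rap nor its dose is given in the labels, nor the composition of the medium without amino acids, or how long the re-added and Rap cells had been starved. Whether libraries of a group are separate cultures is not stated either: p-values rest on how these libraries vary, and that variation may be technical only. The series title names mTORC1, a kinase complex that senses amino acids.

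The cycle burns acetyl groups from pyruvate, fatty acids and amino acids in the mitochondrial matrix, and its intermediates also leave it for the synthesis of lipids, aspartate and glutamate. Citrate synthase joins acetyl-CoA to oxaloacetate, and each later enzyme carries the carbon on until malate dehydrogenase restores oxaloacetate. What is withdrawn has to be replaced, and in β-cells pyruvate carboxylase does much of this; the resulting export of malate, citrate and isocitrate to the cytosol is a known part of the coupling of glucose to insulin secretion. Amino acids enter the cycle mainly as pyruvate, glutamate by way of 2-oxoglutarate, and oxaloacetate.

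The libraries held between 18555958 and 25631056 counted reads, and each member was covered by 1198 reads or more in every library. The 10 β-cell markers all had reads in every library, and the acinar markers were at or near 0, with sums of at most 0.214 CPM (counts relative to library size). Of the β-cell markers, Ucn3 (8 to 38 reads) and Slc2a2 (23 to 269 reads) were the lowest. The 3 other endocrine markers, Gcg, Sst and Ppy, summed to between 165.5 CPM (starved replicate 1) and 310 CPM (control replicate 1). Reads of genes that mark other cell types were present at levels that differed within groups: the 20 markers of fibroblasts, leukocytes and endothelium summed to 1479.6, 1753 and 1691 CPM for control, 1463, 61.7 and 672 for starved, 574, 60.7 and 62.2 for re-added and 56.1, 52.1 and 48.3 for Rap, with at most 1 of the 20 at 0 in a library. The 4 lung epithelium markers ran alike, from 1322 to 1574 CPM in control down to 34.6 to 41.4 CPM in Rap libraries. How these reads entered the libraries is not known, so the covariate and the matched comparisons refer to the marker level and not to a known admixture. The members are expressed in nearly all cells, and the part of these reads in their levels was not tested. In the marker-matched comparisons the starved arm is 1 library, replicate 1 against control and replicate 2 against the other groups, with its spread taken from the other groups; those that involve re-added or Rap libraries leave out re-added replicate 1. Of near copies, Csl held at most 7 reads and Mdh1b at most 66. Mdh1 shares 52 exon bases with Wdpcp on the other strand, a gene with at most 387 reads in a library against 6234 or more for Mdh1. In bulk RNA fewer cells and less RNA per cell cannot be told apart.

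Levels of different genes were compared as TPM, the authors' counts per exon length scaled to a common total. In control cells Mdh1, the cytosolic malate dehydrogenase gene, stood highest at 425 ± 18.9 TPM (SD, n = 3), followed by Idh2 at 259 ± 4.06, Mdh2 at 226 ± 3.02, Cs at 199 ± 20.1 and Fh1 at 171 ± 17.5 TPM. Ogdh (122 ± 27.2 TPM), Pcx (118 ± 22.6 TPM) and Idh3a (99.3 ± 8.95 TPM) came next, and Sucla2 was lowest at 47.3 ± 1.01 TPM. The library ranges of Cs and Fh1 overlapped, as did those of Ogdh with Pcx and of Pcx with Idh3a; the other neighbours did not overlap. Starved cells kept this order, with no overlap between neighbours. After re-addition the order was Mdh1, Mdh2, Fh1, Cs, Ogdh, Idh2, Idh3a, Pcx and Sucla2, again with no overlap, so that Idh2 moved from the second place to the sixth (145 ± 6.11 TPM). In Rap cells the TPM of Cs (144 ± 8.77), Idh2 (135 ± 4.56) and Ogdh (129 ± 9.04) lay so close that the ranges of these neighbours overlapped, and the other neighbours stayed apart.

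**Figure D1:**
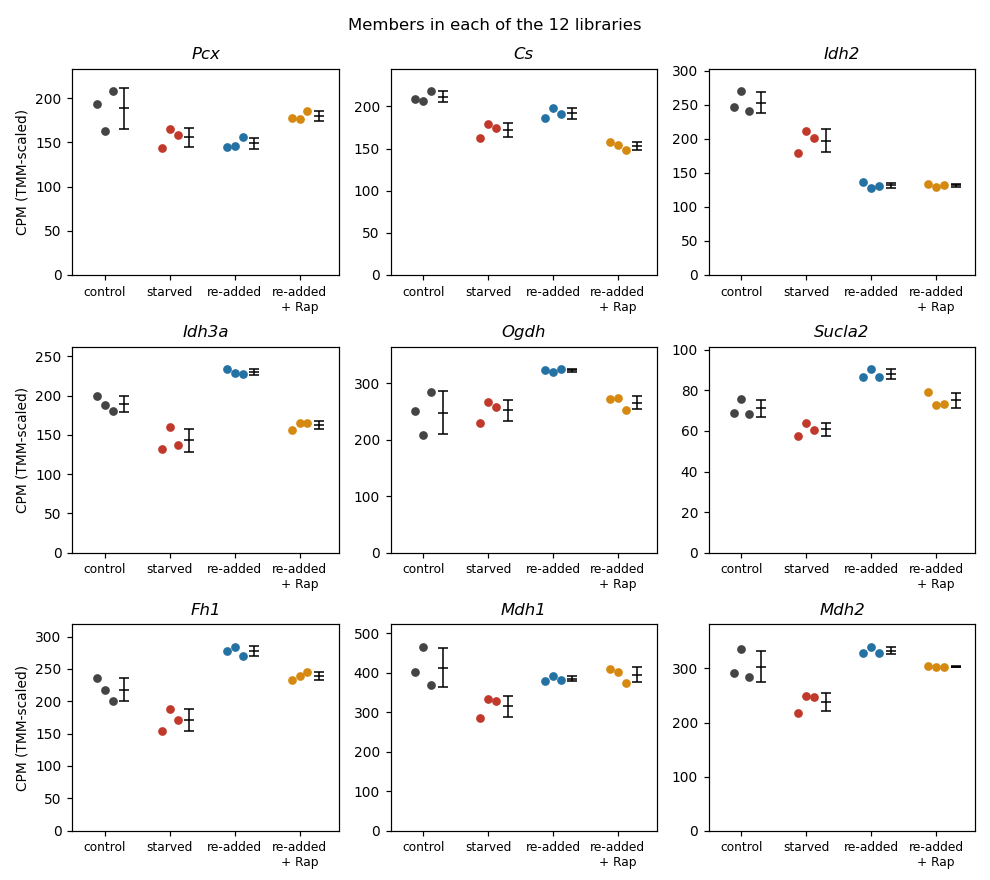
CPM (read counts relative to the TMM-scaled library size, linear axis from 0) of the 9 members in each library, 3 points per group, with the group mean and SD beside them. Idh3a sits highest in the 3 re-added libraries (227 to 234 CPM), and Idh2 is lower in the re-added and Rap libraries (128 to 136 CPM) than in all control and starved libraries.

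Starved were compared with control libraries to see the effect of 16 h in the absence of amino acids. Of the 9 members 8 fell and none rose; Ogdh was the one that did not pass. The falls were small and alike, from 14.6% for Sucla2 to 24.4% for Idh3a, and the members' median log2 fold change was -0.35, against 0.01 over all genes tested. Over all genes 14.6% were called lower and 24.3% higher, 38.9% in all (edgeR's quasi-likelihood test, Benjamini-Hochberg adjusted p under 0.05). In 7 of the 9 members the CPM of the 6 libraries did not overlap between the groups, which held for 50.1% of all genes. The size of these changes depended on the scaling: upper-quartile factors moved the median of all genes to -0.13 and that of the members to -0.50, while on the TPM values these were 0.15 and -0.23 and 5 members fell. The distance of the members' median from that of all genes was -0.36, -0.37 and -0.38 under the 3 scalings. Over all genes 4101 were higher and 2458 lower as tested, 2961 and 3679 when upper-quartile factors were used, and 5388 and 1984 by limma on the TPM values.

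The second comparison asked what 3 h of re-added amino acids changed. Idh3a, Ogdh, Sucla2, Fh1, Mdh1 and Mdh2 rose, 6 of the 9, and Idh2 fell further; Pcx and Cs did not pass. Fh1 and Idh3a rose most, by 62.3% and 60.6%, and Idh2 fell by 33.2%. Over all genes 18.4% were called higher and 18.8% lower, 37.3% in all, and the median log2 fold change was 0.36 over the members and -0.06 over all genes. The CPM of the groups did not overlap in 8 members, and in 50.6% of all genes. In marker-matched libraries 4 members rose (Idh3a, Sucla2, Fh1 and Mdh2) and Idh2 fell.

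The third comparison asked what Rap changed when given with the amino acids. Idh3a and Cs fell, 2 of the 9, and no member rose. Idh3a was 29.5% lower and Cs 20.2% lower than in cells given amino acids alone. Of all genes 3.43% were called lower and 4.55% higher, 7.98% in all, and the median was -0.22 over the members and 0.00 over all genes. The CPM did not overlap between the groups in 7 members, against 38.9% of all genes. The count of falling members depended on the test: it was 4 with upper-quartile factors, 5 with DESeq2 and with limma on the TPM values, and 6 when only the 6 libraries of these groups were fitted, and in 3 of these (upper-quartile factors, DESeq2 and the 6-library fit) Pcx was called higher. Without 1 library it ranged from 1 (without re-added replicate 2 or Rap replicate 3) to 4 (without control replicate 2 or starved replicate 1). All-gene calls were 766 higher and 578 lower, but 921 and 829 with upper-quartile factors and 1081 and 1109 by DESeq2. They were 579 and 1443 on the TPM values, 589 and 696 without a filter, and 1829 and 2130 in the 6-library fit. Without re-added replicate 2 or Rap replicate 3, 261 and 268 genes were called lower. Without control replicate 2 or starved replicate 1 the lower calls were 890 and 859. The re-added libraries enter both this comparison and the one before it, so a gene high in them tends to appear as risen in the one and fallen in the other.

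**Figure D2:**
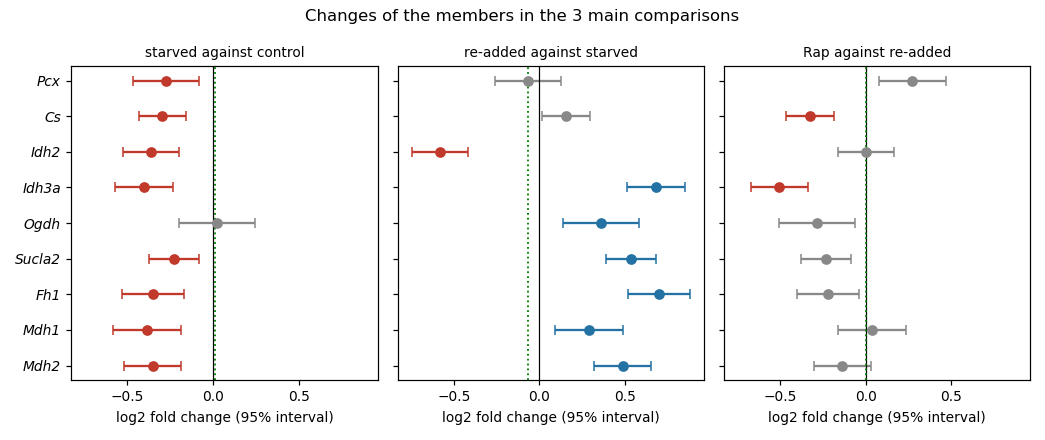
Log2 fold change of each member with its 95% interval in the 3 main comparisons of the edgeR fit; blue points rose, red points fell, grey points did not pass, and the green dotted line marks the median of all genes tested. The falls without amino acids lie close together between -0.23 and -0.40, whereas the changes on re-addition spread from -0.58 for Idh2 to 0.70 for Fh1.

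Pcx (chromosome 19, 4510472 to 4621752, plus strand; GRCm38.p6, as in the count files) encodes pyruvate carboxylase, which makes oxaloacetate from pyruvate. It was measured at 194, 163 and 209 CPM for control, 144, 165 and 159 for starved, 145, 145 and 156 for re-added and 177, 176 and 186 for Rap. The control libraries spread widely and their lowest lay below 1 starved library, and the 3 Rap libraries lay above all starved and re-added ones. The fall without amino acids passed (log2 fold change -0.28 ± 0.09 SE, adjusted p = 0.028), but not without control replicate 1 (-0.25, adjusted p = 0.079) or 3 (-0.19, adjusted p = 0.104), in marker-matched libraries (-0.37, adjusted p = 0.0751), in a fit of the 6 libraries alone (adjusted p = 0.074) or on the TPM values (-0.14). Re-addition gave no change that passed (log2 fold change -0.07 ± 0.09 SE, adjusted p = 0.576, 95% interval -0.26 to 0.13). Pcx was the 1 member with a positive log2 fold change of more than 0.1 with Rap, at 0.27 (SE 0.09, adjusted p = 0.0897), which did not pass; without control replicate 2, the library with the lowest Pcx of its group, it was 0.27 and passed (adjusted p = 0.0209). Re-added cells stayed below control (log2 fold change -0.34 ± 0.09 SE, adjusted p = 0.00974), a call lost on the TPM values (-0.23).

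Cs (chromosome 10, 128337832 to 128362479, plus strand) encodes citrate synthase, the entry point of acetyl-CoA. Its level was 209, 206 and 219 CPM for control, 162, 179 and 175 for starved, 186, 199 and 191 for re-added and 158, 154 and 148 for Rap. No library of one group overlapped with another group, and the order from high to low was control, re-added, starved and Rap. The fall without amino acids was -0.30 on the log2 scale (SE 0.06, adjusted p = 0.00305), and -0.17 on the TPM values, where it did not pass (adjusted p = 0.0688). The difference on re-addition, 0.16 (adjusted p = 0.071), did not pass, but did so with RLE or upper-quartile factors (0.17 and 0.22), with DESeq2, in the 6-library fit (0.18), and without starved replicate 3 (0.20) or re-added replicate 1 (0.19). Rap cells had less Cs than cells given amino acids alone (log2 fold change -0.32 ± 0.06 SE, adjusted p = 0.00834); without re-added replicate 2 or Rap replicate 3 the change was -0.30 in both cases and just missed the threshold (adjusted p = 0.0541 and 0.0506). Rap cells also had less Cs than starved cells (-0.17, adjusted p = 0.0476), a call lost in 12 of 23 alternatives.

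Idh2 and Idh3a act at the same step, from isocitrate to 2-oxoglutarate, but Idh2 is the NADP-dependent mitochondrial enzyme, which yields NADPH, and Idh3a is the catalytic subunit of the NAD-dependent enzyme of the cycle itself. Idh2 (chromosome 7, 80094846 to 80115392, minus strand) was measured at 247, 271 and 241 CPM for control, 178, 211 and 201 for starved, 136, 128 and 131 for re-added and 134, 129 and 132 for Rap. The values stepped down from control to starved to re-added cells with no overlap, and re-added and Rap libraries lay together. Both steps passed, without amino acids (log2 fold change -0.36 ± 0.07 SE, adjusted p = 0.00257) and on re-addition (log2 fold change -0.58 ± 0.08 SE, adjusted p = 9.6e-05), and under all 23 alternatives of each. Re-added cells had 48.0% less Idh2 than control cells (log2 fold change -0.94, adjusted p = 5.6e-06). Rap made no detectable difference (log2 fold change 0.00 ± 0.08 SE, adjusted p = 0.989, 95% interval -0.16 to 0.17), and the sign of this value turned under 16 of 23 alternatives.

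Idh3a (chromosome 9, 54586334 to 54604661, plus strand) went the other way on re-addition. It stood at 199.9, 188 and 180.2 CPM for control, 132, 159.6 and 137 for starved, 234, 228 and 227 for re-added and 156, 165 and 165 for Rap. The re-added libraries were the highest and did not overlap with any other group, and the Rap libraries overlapped with the starved ones. The fall without amino acids (log2 fold change -0.40 ± 0.08 SE, adjusted p = 0.00155), the rise on re-addition (log2 fold change 0.68 ± 0.08 SE, adjusted p = 3.6e-05) as well as the lower level with Rap (log2 fold change -0.50 ± 0.08 SE, adjusted p = 0.00201) each passed under all 23 alternatives. Re-added cells had more Idh3a than control cells (0.28, adjusted p = 0.0123), but not with the marker sum as a covariate (0.16, adjusted p = 0.351). Rap against starved cells gave 0.18 (adjusted p = 0.0771), which did not pass; it passed with RLE or upper-quartile factors (0.18 and 0.24), with DESeq2, in the 6-library fit and without starved replicate 2.

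Ogdh (chromosome 11, 6291633 to 6356642, plus strand) encodes the E1 subunit of the 2-oxoglutarate dehydrogenase complex, which makes succinyl-CoA. Its level was 251, 208 and 284 CPM for control, 229.9, 266 and 258 for starved, 323, 320.0 and 325 for re-added and 271, 273 and 252 for Rap. The control libraries covered the whole range of the starved ones, and the re-added libraries lay together above all others. Absence of amino acids gave no change beyond the spread (log2 fold change 0.02 ± 0.10 SE, adjusted p = 0.879, 95% interval -0.20 to 0.24), and the sign of this value turned in 11 of 23 alternatives. Ogdh rose on re-addition (log2 fold change 0.36 ± 0.10 SE, adjusted p = 0.015), but not on the TPM values (0.34, adjusted p = 0.0574) or in marker-matched libraries (0.33, adjusted p = 0.164). Rap libraries were lower than re-added ones with no overlap, a difference that did not pass (log2 fold change -0.28 ± 0.10 SE, adjusted p = 0.12); without control replicate 2, the lowest of its group, it did (-0.28, adjusted p = 0.0256).

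Sucla2, Fh1 and Mdh2 act later in the cycle, and their levels varied most alike over the 12 libraries. Sucla2 (chromosome 14, 73525319 to 73596142, plus strand) encodes the ATP-forming β subunit of succinyl-CoA synthetase. It was measured at 69.0, 75.8 and 68.6 CPM for control, 57.6, 64.1 and 60.6 for starved, 86.6, 90.7 and 86.8 for re-added and 79.2, 72.7 and 73.2 for Rap. Starved libraries were the lowest and re-added libraries the highest, with no overlap of either with another group. Sucla2 fell without amino acids (log2 fold change -0.23 ± 0.07 SE, adjusted p = 0.0196), though not without control replicate 2 (-0.18, adjusted p = 0.0522), in marker-matched libraries (-0.29, adjusted p = 0.065) or on the TPM values (-0.10, adjusted p = 0.16). Its rise on re-addition passed under all 23 alternatives (log2 fold change 0.54 ± 0.07 SE, adjusted p = 8.5e-05). The lower level with Rap was close to the threshold (log2 fold change -0.23 ± 0.07 SE, adjusted p = 0.0599) and passed under 12 of 23 alternatives, among them leaving out control replicate 2 or any 1 of the starved replicates (-0.23 to -0.26).

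Fh1 (chromosome 1, 175600374 to 175625635, minus strand) encodes fumarase, found in mitochondria and cytosol. It was measured at 235, 217 and 201 CPM for control, 153, 188 and 171 for starved, 278, 285 and 269.9 for re-added and 232, 239 and 245 for Rap. All 4 groups were separate, in the order re-added, Rap, control and starved, except that the highest control library lay within the range of the Rap libraries. The fall (log2 fold change -0.35 ± 0.08 SE, adjusted p = 0.00562) and then the rise on re-addition (log2 fold change 0.70 ± 0.08 SE, adjusted p = 5.4e-05) passed under all 23 alternatives of each. Rap cells had more Fh1 than starved cells, also under all 23 (log2 fold change 0.48 ± 0.08 SE, adjusted p = 0.000938). The difference of Rap from re-added cells did not pass (log2 fold change -0.22 ± 0.08 SE, adjusted p = 0.141, 95% interval -0.40 to -0.04), but did under 6 of 23 alternatives, with the largest size on the TPM values (-0.32, adjusted p = 0.00796), and also without starved replicate 1 (-0.25).

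Mdh2 (chromosome 5, 135778480 to 135790398, plus strand) and Mdh1 (chromosome 11, 21556787 to 21572367, minus strand) encode the mitochondrial and the cytosolic malate dehydrogenase, which both take part in the malate-aspartate shuttle. Mdh2 was measured at 291, 335 and 284 CPM for control, 218, 249 and 246 for starved, 329.5, 341 and 329 for re-added and 304, 302 and 304 for Rap. Starved libraries were the lowest with no overlap, and control libraries spread from below the Rap libraries into the range of the re-added ones. The fall (log2 fold change -0.35 ± 0.08 SE, adjusted p = 0.00357) and then the rise (log2 fold change 0.49 ± 0.08 SE, adjusted p = 0.000431) passed under all 23 alternatives of each. Mdh1 stood at 401, 466 and 370.0 CPM for control, 285, 333 and 328 for starved, 379.8, 393 and 382 for re-added and 409.7, 403 and 374 for Rap. Its starved libraries, too, lay below all others, and the other 3 groups overlapped. Its fall passed under all 23 alternatives (log2 fold change -0.39 ± 0.09 SE, adjusted p = 0.00547). The rise of Mdh1 on re-addition was smaller (log2 fold change 0.29 ± 0.09 SE, adjusted p = 0.0264) and was lost without re-added replicate 2 (0.27, adjusted p = 0.0837) or 3 (0.29, adjusted p = 0.0625), with the marker sum as a covariate (0.25) and in marker-matched libraries (0.28, adjusted p = 0.192). With Rap neither passed, with -0.14 for Mdh2 (adjusted p = 0.321) and 0.04 for Mdh1 (adjusted p = 0.838, 95% interval -0.16 to 0.24); on the TPM values Mdh2 was called lower (-0.24, adjusted p = 0.00324) and the Mdh1 value turned to -0.07.

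Promoter windows of RefSeq (GRCm38.p6, 250 bases before to 50 after an annotated start) matched 8 of the 9 members, 14 windows in all. Idh3a had no window, so nothing is said of its promoter. Those of the closest trio, Sucla2, Fh1 and Mdh2, and of Idh2, which went the other way on re-addition, are shown to let their start regions be compared. They lie at chr14:73552536-73552835 (plus strand), chr1:175625586-175625885 (minus strand), chr5:135778399-135778698 (plus strand) and chr7:80115301-80115600 (minus strand), and are written 5′ to 3′ on the gene's strand, with capitals for any match to the motifs named next. The Sucla2 window lies inside the gene span of the count files and not at its first base, 73525319.
Sucla2: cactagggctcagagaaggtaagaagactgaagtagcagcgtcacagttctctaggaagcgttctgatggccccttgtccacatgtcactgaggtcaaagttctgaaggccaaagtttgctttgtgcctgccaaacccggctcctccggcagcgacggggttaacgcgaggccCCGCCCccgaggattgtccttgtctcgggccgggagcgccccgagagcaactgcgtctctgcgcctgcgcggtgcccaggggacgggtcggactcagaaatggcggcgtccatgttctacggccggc
Fh1: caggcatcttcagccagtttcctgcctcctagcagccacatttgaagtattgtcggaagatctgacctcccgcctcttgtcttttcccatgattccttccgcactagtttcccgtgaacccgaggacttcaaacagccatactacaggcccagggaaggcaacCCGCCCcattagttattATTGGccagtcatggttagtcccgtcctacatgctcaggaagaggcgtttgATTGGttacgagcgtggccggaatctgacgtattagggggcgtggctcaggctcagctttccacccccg
Mdh2: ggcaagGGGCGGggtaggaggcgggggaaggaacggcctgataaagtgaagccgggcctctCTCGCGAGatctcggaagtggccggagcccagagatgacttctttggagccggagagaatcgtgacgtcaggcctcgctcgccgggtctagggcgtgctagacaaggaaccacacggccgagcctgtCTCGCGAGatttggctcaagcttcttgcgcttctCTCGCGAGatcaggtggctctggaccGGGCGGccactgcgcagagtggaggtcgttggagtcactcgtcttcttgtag
Idh2: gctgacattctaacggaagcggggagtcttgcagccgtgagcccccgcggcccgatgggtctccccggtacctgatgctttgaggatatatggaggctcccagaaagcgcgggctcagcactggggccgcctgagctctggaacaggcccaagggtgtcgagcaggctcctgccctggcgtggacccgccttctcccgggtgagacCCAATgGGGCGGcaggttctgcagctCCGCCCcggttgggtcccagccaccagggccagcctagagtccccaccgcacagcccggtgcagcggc

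The motifs, searched on both strands, were the CCAAT box (CCAAT, in 37.4% of all 32851 windows of the same length), the GC box (GGGCGG, 35.7%), the E-box (CACGTG, 7.15%), the core of the hypoxia response element (ACGTG, 19.6%, contained in the E-box), the core of the C/EBP-ATF response element (TGATGNAA, 3.97%), the ERR half-site (AAGGTCA, 4.72%), a half-site of NRF1 (GCATGCGC, 2.71%) and, added after the windows had been read, the palindrome CTCGCGAG (0.919%). Sucla2 has 1 GC box, at -77 from the annotated start of its window. Fh1 has 1 GC box and 2 CCAAT boxes on the other strand, at -70 and -19, and Idh2 has 1 CCAAT box at -44 and 2 GC boxes. Mdh2 has no CCAAT box but 2 GC boxes and 3 copies of CTCGCGAG, at -189, -62 and -28, which none of the other 13 windows holds. The windows of Cs and Mdh1 have 2 CCAAT boxes each. Ogdh has 6 windows, which overlap in part: the first 4 have 2 CCAAT boxes each, windows 4 to 6 an E-box each, window 4 the only ERR half-site of the 14 windows, at -5, and windows 5 and 6 the only NRF1 half-sites, at -15 and -36. Of the pair of Pcx windows, the upstream one (chr19:4510222-4510521) has an E-box at -248 and 3 CCAAT boxes and the downstream one (chr19:4594069-4594368) 1 CCAAT box; the deposited counts do not separate these starts. Outside an E-box, the hypoxia response core lies in Mdh1 at -199 and in the upstream Pcx window at -140. It also lies in Ogdh windows 1, 2 and 3, at -45, -54 and -107. The C/EBP-ATF core was found in none of the 14 windows, which says only that these letters are not there. These matches are descriptions of sequence.

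Ratios of TPM within a library compare isoenzymes independently of the scaling between libraries. Idh2 TPM was 2.42, 2.82 and 2.62 times that of Idh3a in the control and 2.64, 2.60 and 2.87 times in the starved libraries, but 1.14, 1.1 and 1.13 times in the re-added and 1.68, 1.53 and 1.57 times in the Rap libraries. The ratio thus differed between re-added cells and both earlier groups with no overlap, and Rap libraries lay between them. In the order of the starved ratios just given, the marker sums were 1463, 61.7 and 672 CPM; their part in the ratio was not tested. On the log2 scale the difference was -1.27 for re-added against starved and 0.51 for Rap against re-added cells, and 0.04 for starved against control cells, where the ranges overlapped. In exact two-sided permutation tests of 3 against 3 libraries the smallest possible p is 0.1, which the first 2 differences reached; over the 15 ratio tests run the adjusted p was 0.15, so none can pass 0.05 in this design.

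The ratio of Mdh1 to Mdh2 was 1.91, 1.93 and 1.81 in the control, 1.81, 1.86 and 1.85 in the starved, 1.60, 1.60 and 1.61 in the re-added and 1.87, 1.85 and 1.71 in the Rap libraries. It was lower in the re-added libraries than in any other, with a difference of -0.20 on the log2 scale from starved cells (exact permutation p = 0.1, the smallest possible). Sucla2 was compared with Suclg2, which encodes the GTP-forming β subunit of the same synthetase: the ratio was 2.50, 2.92 and 2.68 in the control, 2.21, 2.08 and 2.3 in the starved, 2.42, 2.54 and 2.36 in the re-added and 2.12, 1.98 and 1.96 in the Rap libraries. Starved and Rap libraries had the lower ratios, with differences of -0.30 for starved against control and -0.27 for Rap against re-added (exact permutation p = 0.1 for each).

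**Figure D3:**
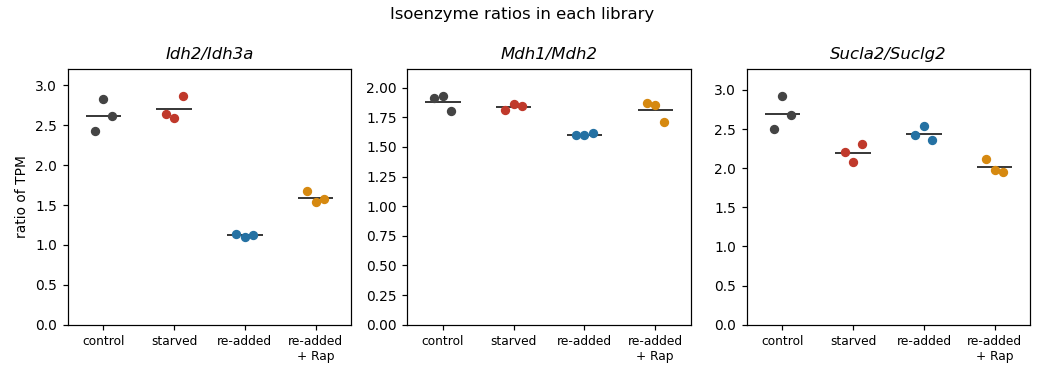
Ratio of TPM of Idh2 to Idh3a, Mdh1 to Mdh2 and Sucla2 to Suclg2 in each library (linear axes from 0), with the geometric mean of each group as a bar. The Idh2 to Idh3a ratio is 2.42 or more in control and starved libraries and 1.14 or less in the re-added ones.

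The other genes around the cycle were taken from 4 lists of 43 genes, of which 42 were tested (Pck1 held at most 5 reads). Without amino acids 7 of the 42 rose and 13 fell, 17 rose and 7 fell after re-addition, and 2 rose and 4 fell under Rap. The shares of all genes called higher and lower were 24.3% and 14.6% without amino acids. They were 18.4% and 18.8% after re-addition, and 4.55% and 3.43% under Rap. Of 11 further cycle enzyme genes 3 fell without amino acids (Sdhb, Sdhc and Suclg1) and 1 rose, Sdha, the flavoprotein subunit of succinate dehydrogenase (log2 fold change 0.58, adjusted p = 0.000327); these were named after their values were seen. On re-addition 6 of the 11 rose and 1 fell, and with Rap none passed; the medians over these 11 were -0.04, 0.26 and -0.12. The carriers and shuttles had the lowest median of the lists without amino acids, at -0.47, with 5 of 10 lower and none higher. In the pyruvate dehydrogenase list 3 of 11 were higher and 2 lower without amino acids, and 3 higher and 2 lower on re-addition. These counts are near the shares of all genes.

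Named by the size of their change, the largest movers without amino acids were Pdk1, the pyruvate dehydrogenase kinase gene, from 131 ± 16.8 to 34.5 ± 3.3 CPM (SD, n = 3; log2 fold change -1.93, adjusted p = 1.7e-07), Gpt2, the mitochondrial alanine transaminase gene, from 30.2 ± 3.23 to 109.7 ± 11.8 CPM (1.86), and Mpc1, a subunit of the mitochondrial pyruvate carrier, from 70.9 ± 7.87 to 27.1 ± 2.68 CPM (-1.39). Next came the citrate carrier gene Slc25a1 at -1.08, the cytosolic isocitrate dehydrogenase gene Idh1 at -1.03, and Pdpr, a regulatory subunit of pyruvate dehydrogenase phosphatase, at 1.03. The call of Pdpr was lost in the 6-library fit (0.99, adjusted p = 0.104), in marker-matched libraries (0.92, adjusted p = 0.171) and without starved replicate 3 (0.97, adjusted p = 0.0577), and without control replicate 2 its value was 0.67. Each of these 6 changed more than any member did in this comparison.

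Several of the largest movers on re-addition fell. Gpt2 dropped to 38.0 ± 0.508 CPM (a log2 fold change of -1.53, adjusted p = 4.5e-07), Slc25a12, an aspartate-glutamate carrier gene, to 44.2 ± 2.28 CPM (-1.35) and Pck2, the mitochondrial phosphoenolpyruvate carboxykinase gene, to 102 ± 3.65 CPM (-1.11). Pdk2, another kinase of pyruvate dehydrogenase, fell from 30.0 ± 2.26 to 13.5 ± 1.73 CPM. Pdk4 was also called lower, but held 13, 2 and 3 reads in the starved and 0, 0 and 1 in the re-added libraries, and the call was lost without starved replicate 1 (adjusted p = 0.113), re-added replicate 1 or 2, when the marker sum entered the fit (adjusted p = 0.0807), in marker-matched libraries (adjusted p = 0.421) and by limma on TPM with no minimum (adjusted p = 0.12). With Rap, Pdk2 rose again, to 24.0 ± 1.49 CPM (by 0.84 on the log2 scale, adjusted p = 0.00179) and Pdp1, the catalytic subunit of pyruvate dehydrogenase phosphatase, rose from 16.3 ± 0.646 to 27.8 ± 1.98 CPM (0.77, adjusted p = 0.0015). Slc25a22, a glutamate carrier gene (-0.36), Got1, the cytosolic aspartate transaminase gene (-0.32), and Idh1 (-0.29) fell with Rap by less than Idh3a did. Of these, Slc25a22 lost its call without re-added replicate 2 or 3 or any Rap replicate (-0.29 to -0.40), and Idh1 without re-added replicate 2 or 3 or Rap replicate 2 or 3 (-0.24 to -0.31).

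**Figure D4:**
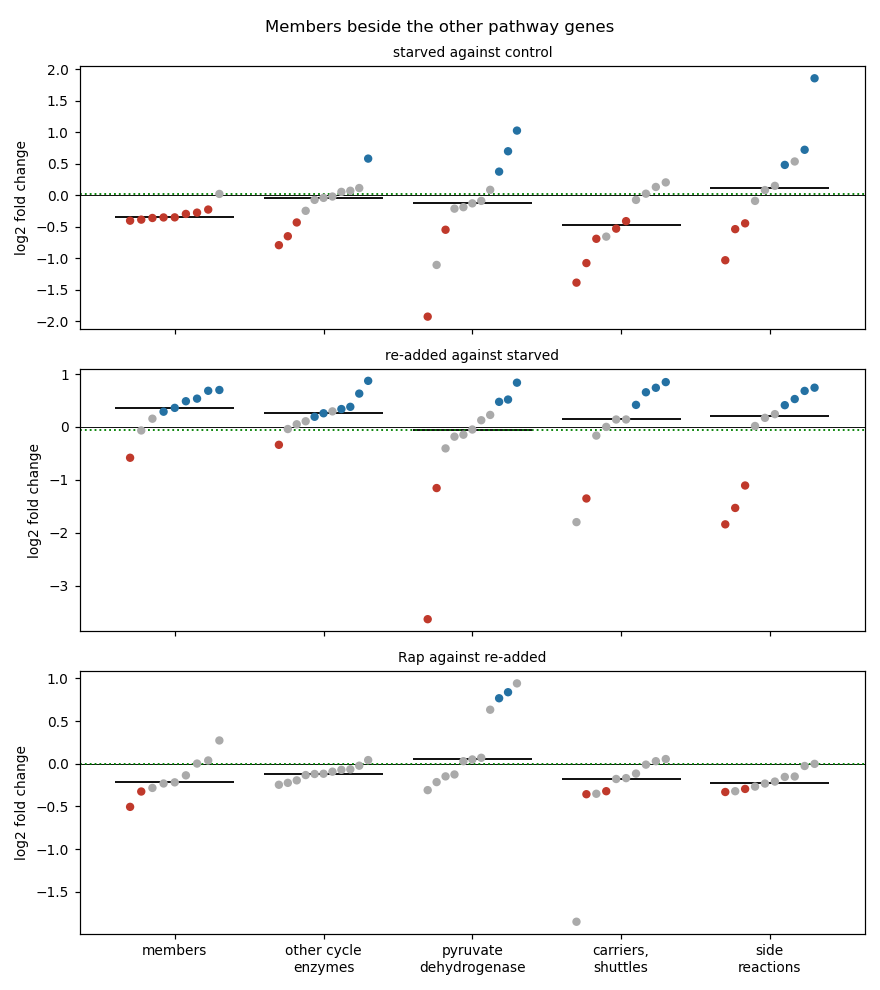
Log2 fold changes of the tested genes of each list in the 3 main comparisons (blue rose, red fell, grey did not pass; black bars are list medians and the green dotted line is the median of all genes tested). Without amino acids the members lie between -0.40 and 0.02, and the other cycle enzymes between -0.79 for Sdhb and 0.58 for Sdha. All the other lists together reach from -1.93 to 1.86. The members and the lists were chosen with earlier results of these data known. The lowest point of the second panel, Pdk4, rests on at most 13 reads in a library.

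In the secondary comparisons, re-added cells had more Idh3a, Ogdh, Sucla2 and Fh1 than control cells and less Pcx and Idh2, 4 higher and 2 lower of the 9, against 24.8% called higher and 24.5% called lower over all genes (49.3% in all); the groups did not overlap in 7 members and in 59.5% of all genes. On the TPM values the all-gene split was 5093 higher and 2932 lower, against 4172 and 4132 on the counts. The largest of the 4 excesses was that of Ogdh (log2 fold change 0.38 ± 0.10 SE, adjusted p = 0.0107). With the marker sum as a covariate none of the 4 passed (Idh3a 0.16, Ogdh 0.30, Sucla2 0.23 and Fh1 0.21), while Pcx and Idh2 did. The covariate fit called 1566 of all genes higher and 1533 lower. All control libraries have a high marker sum, so libraries of like level cannot be compared here, and the group and the marker sum can be told apart in part only. Rap cells had more Sucla2, Fh1, Mdh1 and Mdh2 than starved cells and less Cs and Idh2, with 20.2% of all genes called higher and 23.9% lower (44.1% in all; 3399 and 4025 genes, against 4187 and 3714 with upper-quartile factors and 2320 and 3948 on the TPM values); the groups did not overlap in 7 members and in 53.1% of all genes. In marker-matched libraries, where the starved arm is 1 library, Fh1 was at 0.38 and Idh2 at -0.64. There Sucla2 was at 0.27, Mdh1 at 0.29, Mdh2 at 0.32 and Cs at -0.19, and the median over all genes at 0.02. With the marker sum as a covariate Sucla2, Mdh1, Mdh2 and Cs did not pass, at 0.24, 0.25, 0.29 and -0.24. That fit called 2190 of all genes higher and 2699 lower. This comparison shares the starved libraries with that of re-added cells: there Fh1 was at 0.70 and here at 0.48, Sucla2 at 0.54 and 0.30, Mdh2 at 0.49 and 0.35, Mdh1 at 0.29 and 0.33, Idh2 at -0.58 and -0.58, Idh3a at 0.68 and 0.18, and Ogdh at 0.36 and 0.08.

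Among the 36 pairs of members the levels varied most alike for Sucla2 and Fh1 (Pearson's r = 0.94 and Spearman's rho = 0.89 over 12 libraries of log2 CPM), Sucla2 and Mdh2 (0.93 and 0.95) and Fh1 and Mdh2 (0.92 and 0.81). Mdh1 and Mdh2 came next (0.87 and 0.71), then Idh3a with Fh1 (0.86 and 0.81). Idh2 ran opposite to Ogdh (-0.62 and -0.59), Sucla2 (-0.56 and -0.53) and Fh1 (-0.55 and -0.63). Pcx was close to none of the others, its highest value being 0.35 with Idh2. These are descriptions without a test, since the 12 libraries form 4 groups and share their scaling. Of 11107 named genes of at least 5 CPM, those most like Pcx were Syt13 (r = 0.92), a synaptotagmin gene, Dlgap5 (0.87) and Wdpcp (0.87). Among those most like Cs were Pfkp (r = 0.96), a phosphofructokinase gene, and Lmcd1 (0.95).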

How the data were processed

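RNA of 12 MIN6 libraries was sequenced as 150-base read pairs. The deposited counts are whole reads per gene, 1 file per library, with gene positions on GRCm38.p6 per the file headers and the submitters' processing notes, which also name Subread 2.0.1 and limma 3.46.0 without saying for what. For the aligner, the strand setting and the annotation release the sources used here give nothing. The deposited TPM values equal the authors' counts divided by the listed gene length and scaled to a common total; they also gave the gene names (174 genes have none). TPM columns were assigned to samples by the matching column name of the count files.

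Counts were tested with edgeR 4.0.16 (R 4.3.3; filterByExpr with a minimum count of 10 and a minimum total of 15, TMM factors, quasi-likelihood F test of 4 group means over 12 libraries, 8 residual degrees of freedom), with Benjamini-Hochberg adjustment over all 16844 genes tested and a threshold of 0.05; these genes hold 99.9% of the counts. CPM are per TMM-scaled library size, those of markers per raw total. Alternatives were RLE and upper-quartile factors, DESeq2 1.42.0, no filter, limma 3.58.1 on log2(TPM + 1) or log2(TPM + 0.1), the replicate number as a block, the other-cell marker sum as a covariate, only the 6 libraries compared, libraries matched on that sum, and leaving out each library. For Rap against re-added cells the matched fit is the same as that without re-added replicate 1, and both were counted. The limma fits use the same TPM values and differ only in the pseudocount or the minimum TPM. Ratios were tested by exact permutation. The members and all gene lists were chosen with earlier results of these data known. Named are all 9 members and, in each main comparison, the 6 other pathway genes with the largest change past the threshold, except items that are not reported here; the alternatives for these 6 were added after seeing the data. The scripts were tested on simulated data.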

Additional observations from a re-analysis of the deposited data

How the results depend on the processing

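Over 23 alternatives each, the falls of Idh2, Idh3a, Fh1, Mdh1 and Mdh2 without amino acids, the fall of Idh2 and the rises of Idh3a, Sucla2, Fh1 and Mdh2 on re-addition and the fall of Idh3a with Rap kept their direction and passed. Without amino acids 5 members fell in each of the 3 limma fits on TPM, 8 on the counts and 7 to 8 leaving out 1 library. Of other pathway genes 20 fell with upper-quartile factors and 13 on the default factors. Lower calls over all genes numbered 3679 with upper-quartile factors, 2458 on the default factors and 1984, 1887 and 2034 in the limma fits. Ogdh there was -0.0418 with RLE factors, -0.1192 with upper-quartile factors, -0.0419 by DESeq2, -0.0034 without a filter, -0.0289 with the marker covariate, -0.0169 in the 6-library fit, -0.0909 in matched libraries and between -0.0889 and 0.1351 leaving out 1 library; the log2 ratio of Idh2 to Idh3a lay between -0.0114 and 0.0991 when 1 library was left out. On re-addition the members' median was 0.33 in matched libraries, where the starved arm is 1 library, and 0.36 over all libraries.

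With Rap against re-added cells, members fell in number 4 (upper-quartile), 5 (DESeq2 and each limma fit) and 6 (6-library fit), and 1 rose with upper-quartile factors, DESeq2 and the 6-library fit; leaving out 1 library gave 1 to 4 falling and 0 to 1 rising. Other pathway genes that fell numbered 7 (RLE), 9 (upper-quartile), 11 (DESeq2), 17 and 17 (limma, both pseudocounts), 13 (limma, no minimum), 7 (covariate) and 20 (6-library fit). Leaving out 1 library gave 1 to 7. Lower calls over all genes in these fits, in the same order, were 752, 829, 1109, 1443, 1429, 1116, 789 and 2130. The default fit had 578, and leaving out 1 library gave 245 to 890. Idh2 was -0.0122 (RLE), -0.0048 (upper-quartile), -0.0121 (DESeq2), -0.0307 (no filter), -0.1003, -0.101 and -0.1003 (limma with pseudocount 1, 0.1 and no minimum), -0.0239 (covariate), -0.028 (6-library fit) and -0.0276 to 0.0169 leaving out 1 library. Mdh1 was -0.0658, -0.0659 and -0.0658 in the 3 limma fits, where it was also 0.0087, 0.0088 and 0.0087 for re-added against control cells, and Ogdh -0.0465, -0.0468 and -0.0465 for Rap against starved cells.

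Against control, 1 member of the re-added cells was lower in each limma fit and 0 were higher with the covariate. Of all genes 2932, 2823 and 3861 were lower in the limma fits and 1566 higher with the covariate. The default fit called 4132 lower and 4172 higher. Between Rap and starved cells 1 member was lower with upper-quartile factors, without a filter, with the replicate block and with the covariate. With the covariate 1 was higher, and leaving out 1 library gave 1 to 2 lower and 3 to 5 higher. Lower calls over all genes in the fits first named, in the same order, were 3714, 4209, 3703 and 2699, against 4025 by default. Higher calls were 2190 with the covariate and 3399 by default. The cause of these differences was not tested.

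Of 18 same-numbered pairs of libraries, 2 deviated together, both of starved with re-added cells (replicate 1, r = 0.8115, and replicate 2, r = 0.6724; replicate 3, r = -0.332); not every pair did, so the numbers were not taken to pair the samples; with the replicate block, Cs for Rap against starved cells was -0.1677 (adjusted p = 0.0766 by edgeR) and no other member's call changed. With 3 libraries a group and marker sums that differ within groups, small changes rest on few libraries. The calls of Pcx and Sucla2 without amino acids changed in some fits without 1 library. So did those of Cs on re-addition and with Rap. The fall of Cs without amino acids and the rise of Sucla2 on re-addition kept their calls in all 12 such fits. Strand setting was not given, and the share of Mdh1 reads from Wdpcp was not tested.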
